A study of Mus musculus with 8 samples.

Results

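This account follows 10 genes of triglyceride assembly and breakdown, *Gyk*, *Gpam*, *Agpat2*, *Agpat6*, *Lpin1*, *Lpin2*, *Dgat1*, *Dgat2*, *Mogat1* and *Pnpla2*, among the 23337 gene symbols counted in mouse liver. They were taken by symbol as enzymes of one pathway, with no threshold on a measured value, although earlier results of these data were known when they were chosen. All 10 were counted in every library and all were among the 14328 genes with enough reads to test. *Gyk* and *Agpat6* are older symbols for the genes now called *Gk* and *Gpat4*. RNA-seq was performed on liver of C57BL/6 mice aged 12 weeks. One genotype was wild type (WT), with no further allele given in the labels. The paper describes the controls of this cross as floxed mice without Cre. In the other, called HRD1Alb, Cre recombinase driven by the albumin promoter, which is active in hepatocytes, deleted the floxed gene of the ubiquitin ligase HRD1 (symbol *Syvn1*). These data do not show which other liver cells kept it. Livers were labelled fasted (overnight) or refed (4 h of food after the fast). This gave 4 groups of 2 samples and 8 samples in all. The labels do not say whether the 2 samples of a group came from separate mice or litters, so p-values measure the spread between these samples only.

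The liver builds triglyceride by adding fatty acids one after another to glycerol-3-phosphate. Glycerol kinase makes that starting molecule from glycerol, GPAT enzymes add the first fatty acid, AGPAT enzymes the next, lipins remove the phosphate to give diacylglycerol, and DGAT enzymes add the last fatty acid. Lipases undo the sequence, beginning with adipose triglyceride lipase (ATGL, encoded by *Pnpla2*), and release fatty acids that the fasted liver burns or makes into ketone bodies. Insulin after a meal is known to favour synthesis and to hold down lipase and gluconeogenic genes.

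Levels were given as CPM, counts scaled to a fixed library size, and adjusted between libraries by edgeR's TMM factors. Genes of different length were compared only as CPM per kb of exon. A gene was called at a Benjamini-Hochberg adjusted p under 0.05 over all tested genes in edgeR's quasi-likelihood test. Libraries held 40210576 to 49117080 counts and detected 15935 to 16670 genes. At this depth 3 counts equalled 0.0508 to 0.0788 TMM-normalized CPM, below the level of each of the 10 genes. *Syvn1* stood at 111 and 99.8 CPM in WT fasted liver and at 32.6 and 31.5 CPM in HRD1Alb fasted liver. It stood at 637 and 305 CPM in WT refed liver and at 453 and 132 CPM in HRD1Alb refed liver, so the first library labelled HRD1Alb refed lay above one WT refed library. The difference between genotypes was not called in either state (log2 fold change -1.72, adjusted p = 0.170 fasted, and -0.69, adjusted p = 0.391 refed). Gene-level counts do not separate deleted from kept exons, so they do not test the deletion itself. The paper reports that HRD1Alb liver lost HRD1 mRNA and protein, and the source of the *Syvn1* counts seen here was not tested. Every genotype direction in refed liver below, and every refeeding direction in HRD1Alb liver, rests on the 2 libraries labelled HRD1Alb refed. These 2 refed libraries also differed most from each other. Between them 3204 tested genes were at least 2-fold apart, against 424 to 1141 in the other groups, and the ratio of the second to the first fell with gene length (Spearman's rho across genes -0.509, against -0.116 to 0.0065 in the other groups). Values without one or the other of them are given below for the results among the 10 genes that they moved most. Such a fit leaves that group with 1 sample, so its calls hold none of that group's spread. For genes outside the 10, the part of the trend with gene length was not tested. In bulk liver, fewer cells of a type and less RNA per cell cannot be told apart.

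**Figure D1:**
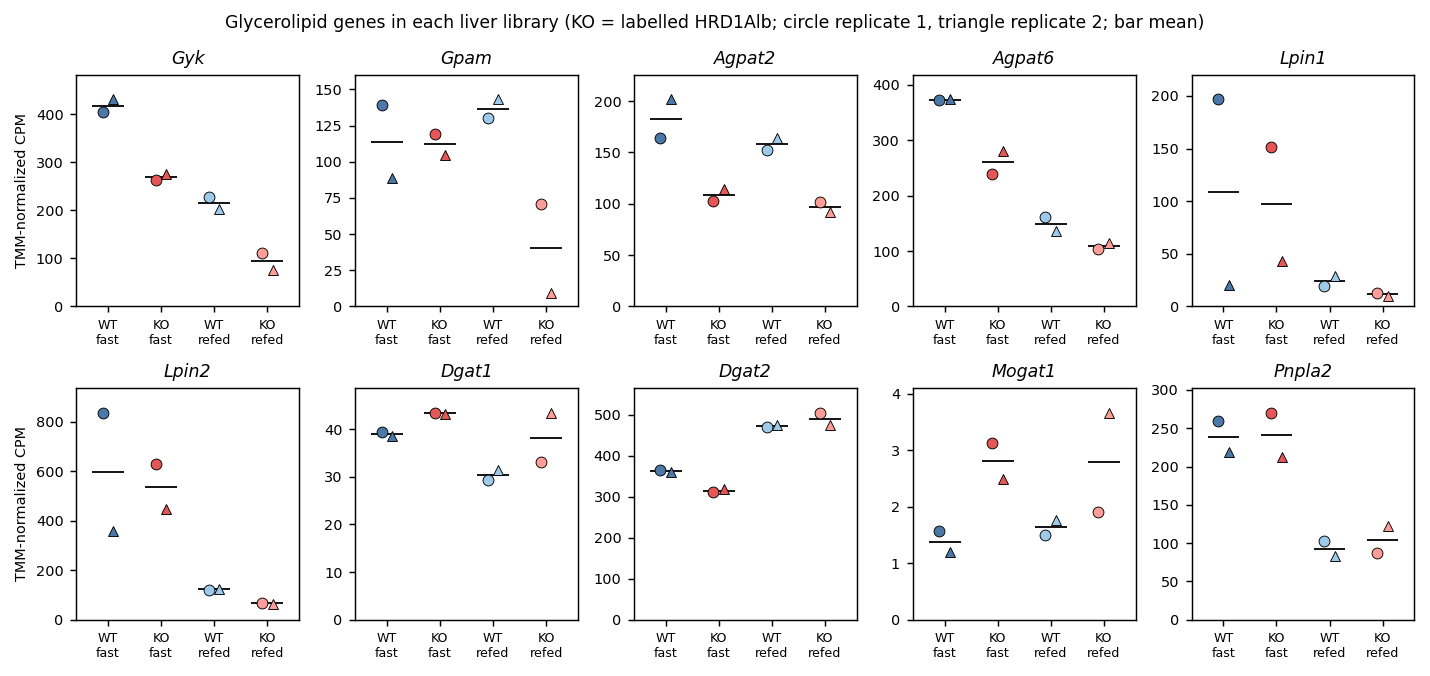
Levels of the 10 genes in all 8 libraries, in TMM-normalized CPM on linear axes that start at 0, with KO standing for the libraries labelled HRD1Alb, circles for replicate 1, triangles for replicate 2 and bars for group means. *Gyk*, *Agpat2* and *Agpat6* were lower in the HRD1Alb libraries in both feeding states. *Gyk*, *Agpat6*, *Lpin2* and *Pnpla2* were lower in every refed library than in any fasted one. *Gpam* and *Lpin1* each show a pair of libraries of one group far apart.

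Sequence upstream of the start is shown for the genes whose levels separated the groups: *Gyk* and *Agpat2*, which were lower in HRD1Alb refed liver, and *Lpin2* and *Pnpla2*, which fell with refeeding. Of the 10 genes, 7 had an entry in the RefSeq promoter table used here (build GRCm38.p6), and *Agpat6*, *Dgat1* and *Dgat2* had none. Each run gives the 250 bases before the annotated start, 5′ to 3′ on the gene's strand. Capitals mark a match on either strand to one of the 9 motifs searched, which were the E-box CACGTG, the forkhead site GTAAACA, the nuclear receptor half-site AGGTCA, the cyclic AMP response half-site TGACG, the SREBP site TCACNCCAC, the CHOP-ATF4 site TGATGNAAT, the CCAAT box, the GC box GGGCGG and the TATA box TATAAA.
Gyk, chrX:85776820-85777069, minus strand: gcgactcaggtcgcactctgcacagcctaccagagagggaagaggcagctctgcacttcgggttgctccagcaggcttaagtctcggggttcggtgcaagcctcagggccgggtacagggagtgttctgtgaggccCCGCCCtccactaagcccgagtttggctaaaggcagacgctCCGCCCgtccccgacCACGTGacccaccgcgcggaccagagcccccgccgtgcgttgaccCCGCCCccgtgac
Agpat2, chr2:26604418-26604667, minus strand: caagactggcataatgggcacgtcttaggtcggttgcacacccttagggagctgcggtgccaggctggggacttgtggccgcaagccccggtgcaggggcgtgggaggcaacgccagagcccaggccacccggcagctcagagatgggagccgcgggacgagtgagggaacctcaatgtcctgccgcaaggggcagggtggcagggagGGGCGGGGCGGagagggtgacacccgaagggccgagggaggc
Lpin2, chr17:71204404-71204653, plus strand: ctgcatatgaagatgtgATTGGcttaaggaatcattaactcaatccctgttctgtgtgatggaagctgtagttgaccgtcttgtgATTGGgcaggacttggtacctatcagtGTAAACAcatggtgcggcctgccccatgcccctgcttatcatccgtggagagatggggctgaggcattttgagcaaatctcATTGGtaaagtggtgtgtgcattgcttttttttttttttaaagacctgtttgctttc
Pnpla2, chr7:141454938-141455187, plus strand: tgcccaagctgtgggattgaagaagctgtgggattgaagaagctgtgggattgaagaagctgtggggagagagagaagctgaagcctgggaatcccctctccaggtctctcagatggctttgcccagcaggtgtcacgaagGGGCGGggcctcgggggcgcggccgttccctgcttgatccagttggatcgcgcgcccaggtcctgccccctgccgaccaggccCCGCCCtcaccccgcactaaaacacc

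The *Gyk* window held 1 E-box, which begins 58 bases before the start, and 3 GC boxes. E-boxes of these letters lay in 6.0% of the 32851 promoter windows of the same length, and GC boxes in 32.7%. *Agpat2* had 2 GC boxes that share 1 base, and *Pnpla2* had 2 separate ones. *Lpin2* has 3 starts in the table, of which 2 match the start of a GENCODE transcript. The one shown is among those 2 and was picked with its matches known, as the only one with a forkhead match. It held that match 138 bases before the start, a motif in 3.2% of windows, and 3 CCAAT boxes, a motif in 33.8%. Of the other *Lpin2* windows, one held 1 E-box, 1 cyclic AMP half-site and 1 GC box, and the other held 1 GC box. None of the 4 windows held the SREBP or CHOP-ATF4 letters (1.1% and 0.8% of windows). The other motifs lay in 14.0% (nuclear receptor half-site), 17.8% (cyclic AMP half-site) and 12.4% (TATA box) of windows. A match is a description of the letters, not evidence of binding, and these data do not show which start was in use.

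In WT fasted liver *Dgat2*, which adds the last fatty acid to triglyceride, had the highest level per length at 118 ± 1.20 CPM per kb (SD, n = 2). *Agpat2* followed at 85.9 ± 12.4 CPM per kb and *Pnpla2* at 79.1 ± 9.56 CPM per kb, which differed by less than their spread. *Agpat6* at 55.9 ± 0.0983, *Gyk* at 54.0 ± 2.43 and *Lpin2* at 48.9 ± 27.7 CPM per kb came next, and neighbours among these 3 were not separated beyond their SD. *Gpam* at 17.1 ± 5.32, *Dgat1* at 12.8 ± 0.194 and *Lpin1* at 11.3 ± 12.9 CPM per kb formed a lower tier, also without separation between neighbours. *Mogat1*, a monoacylglycerol acyltransferase gene, was lowest at 0.887 ± 0.172 CPM per kb. In HRD1Alb refed liver *Dgat2* was again highest at 159 ± 6.93 CPM per kb, *Agpat2* was next at 45.5 ± 3.31 CPM per kb, and *Lpin1* at 1.19 ± 0.171 and *Mogat1* at 1.79 ± 0.793 CPM per kb were lowest and not separated beyond their spread.

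*Gyk* encodes glycerol kinase (chrX:85701937-85776819, minus strand, GRCm38), which phosphorylates glycerol set free by lipolysis. Its level was 404.9 and 431.5 CPM in WT fasted liver, 262.5 and 276.5 CPM in HRD1Alb fasted liver, 228 and 203 CPM in WT refed liver, and 112 and 76.7 CPM in HRD1Alb refed liver. The 4 groups did not overlap, with both HRD1Alb refed libraries lowest and both WT fasted libraries highest. *Gyk* was 2.28-fold lower in HRD1Alb than in WT refed liver (log2 fold change -1.19, SE 0.206, adjusted p = 0.0190). In fasted liver it was 1.55-fold lower and not called (log2 fold change -0.63, SE 0.204, adjusted p = 0.165). Refeeding lowered it 2.86-fold in HRD1Alb liver (log2 fold change -1.51, SE 0.208, adjusted p = 0.00960), while the WT change of -0.96 on the log2 scale was not called (SE 0.205, adjusted p = 0.0629). The genotype differences in the fasted and refed states did not differ detectably (interaction -0.56, SE 0.288, adjusted p = 0.609). Without the first HRD1Alb refed library the interaction was -0.86, and without the second it was -0.31. The related glycerol kinase genes *Gk2* and *Gk5* had at most 44 and 11 counts in a library, at most 0.271% of the *Gyk* count, and *Gykl1* had 0 in all.

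Glycerol-3-phosphate acyltransferases take the next step. *Gpam*, which encodes the mitochondrial GPAT1 (chr19:55067268-55127238, minus strand), stood at 139 and 88.7 CPM in WT fasted, 119 and 105 CPM in HRD1Alb fasted, 130 and 143 CPM in WT refed, and 70.7 and 9.38 CPM in HRD1Alb refed liver. Both HRD1Alb refed libraries lay below all 6 others, but they were 7.53-fold apart from each other. The fitted difference in refed liver was large and uncertain (log2 fold change -1.77, SE 0.757, adjusted p = 0.150). It was -3.87 without the first HRD1Alb refed library and -0.95 without the second. The refeeding value in HRD1Alb liver was -3.58 without the first and -0.67 without the second. In fasted liver the groups overlapped and the fitted difference was -0.02 on the log2 scale (SE 0.735, adjusted p = 0.992), with a positive value under several settings. *Agpat6*, the GPAT4 of the endoplasmic reticulum (chr8:23171265-23208346, minus strand), followed feeding instead. Its level was 373 and 374 CPM in WT fasted, 239 and 281 CPM in HRD1Alb fasted, 162 and 137 CPM in WT refed, and 103 and 115 CPM in HRD1Alb refed liver, with no overlap between any of the groups. Refeeding lowered it 2.50-fold in WT (log2 fold change -1.32, SE 0.171, adjusted p = 0.0197) and 2.38-fold in HRD1Alb liver (log2 fold change -1.25, SE 0.171, adjusted p = 0.00930). It was 1.44-fold lower in HRD1Alb than WT fasted liver and 1.37-fold lower in refed liver, neither of which was called (adjusted p = 0.166 and 0.112).

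*Agpat2* encodes the acyltransferase that turns lysophosphatidic acid into phosphatidic acid (chr2:26593057-26604417, minus strand). It stood at 164 and 202 CPM in WT fasted, 103 and 115 CPM in HRD1Alb fasted, 152 and 164 CPM in WT refed, and 102 and 92.0 CPM in HRD1Alb refed liver. All 4 HRD1Alb libraries lay below all 4 WT libraries, while the feeding states of one genotype differed little. The gene was 1.63-fold lower in HRD1Alb refed liver (log2 fold change -0.71, SE 0.168, adjusted p = 0.0404) and 1.68-fold lower in HRD1Alb fasted liver, where it was not called (log2 fold change -0.75, SE 0.168, adjusted p = 0.0805). The interaction was 0.04 on the log2 scale (SE 0.237, adjusted p = 0.949). Refeeding changed it by -0.21 in WT (SE 0.167, adjusted p = 0.629) and by -0.17 in HRD1Alb liver (SE 0.167, adjusted p = 0.516). Its exons share 64 bases with *Egfl7* on the opposite strand, and whether counting used strand is not stated.

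Lipins are phosphatidic acid phosphatases, and *Lpin2* was called lower with refeeding in both genotypes. *Lpin2* (chr17:71182560-71249817, plus strand), the abundant form in liver, stood at 837 and 358 CPM in WT fasted, 630 and 447 CPM in HRD1Alb fasted, 119 and 126 CPM in WT refed, and 68.6 and 64.1 CPM in HRD1Alb refed liver. Each fasted library exceeded each refed one, and within the refed state the genotypes did not overlap. Refeeding lowered *Lpin2* 4.88-fold in WT (log2 fold change -2.29, SE 0.385, adjusted p = 0.0346) and 8.12-fold in HRD1Alb liver (log2 fold change -3.02, SE 0.397, adjusted p = 0.00866). The interaction of -0.73 was not called (SE 0.521, adjusted p = 0.651), nor was the refed genotype difference of -0.88 (SE 0.371, adjusted p = 0.145). *Lpin1* (chr12:16535669-16610966, minus strand), a lipin known to be induced by fasting, stood at 197 and 20.7 CPM in WT fasted, 151 and 42.9 CPM in HRD1Alb fasted, 19.4 and 29.1 CPM in WT refed, and 12.7 and 10.3 CPM in HRD1Alb refed liver. The 2 fasted libraries of a genotype were 9.49-fold apart in WT and 3.53-fold apart in HRD1Alb liver, and the first replicate was the higher in both. With all 8 libraries edgeR called no *Lpin1* contrast (refeeding -2.17, SE 0.968, adjusted p = 0.330 in WT, and -3.08, SE 1.01, adjusted p = 0.0912 in HRD1Alb liver). The HRD1Alb refeeding difference was called by DESeq2 (adjusted p = 0.0366). Without the first WT fasted library the WT refeeding value was 0.23 and the fasted genotype value 2.22, in place of -0.16. *Lpin2*, and *Ppargc1a*, which encodes the fasting-induced coactivator PGC-1α, were also higher in these first replicates. *Ppargc1a* stood at 22.1 against 12.9 CPM in WT and 57.0 against 18.9 CPM in HRD1Alb fasted liver. Other listed regulators were mixed. *Foxo1* was also higher in both first replicates. *Ppara* was higher in the first WT library (537 against 436 CPM) but lower in the first HRD1Alb one (325 against 361 CPM). *Cebpb* was lower in both (53.7 against 54.5 CPM in WT, 68.0 against 91.9 CPM in HRD1Alb). The source of this spread was not tested.

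**Figure D2:**
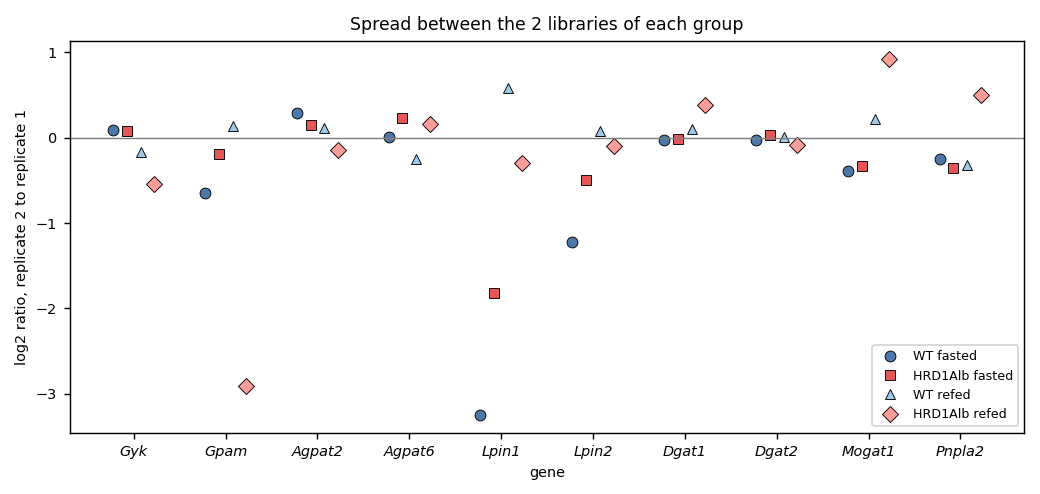
Log2 ratio of replicate 2 to replicate 1 for each of the 10 genes in each group, from TMM-normalized CPM, with 0 meaning equal libraries. Most points lie within 1 of 0, and those below -1 are *Lpin1* in both fasted groups (-3.24 and -1.82), *Lpin2* in WT fasted liver (-1.22) and *Gpam* in HRD1Alb refed liver (-2.91).

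Diacylglycerol acyltransferases close the path. *Dgat2* (chr7:99153658-99182719, minus strand) had replicates within 1.06-fold of each other in every group, at 365 and 360 CPM in WT fasted, 311 and 318.5 CPM in HRD1Alb fasted, 470 and 474 CPM in WT refed, and 505 and 475 CPM in HRD1Alb refed liver. Every refed library lay above every fasted one. It was the one gene of the 10 that was called higher after refeeding, 1.56-fold in HRD1Alb liver (log2 fold change 0.64, SE 0.142, adjusted p = 0.0344), and it was 1.30-fold higher in WT without being called (log2 fold change 0.38, SE 0.141, adjusted p = 0.239). With a correction for gene length the HRD1Alb value was 0.48 and not called (adjusted p = 0.0511). Its genotype difference was -0.20 in fasted liver (SE 0.141, adjusted p = 0.504) and 0.05 in refed liver (SE 0.141, adjusted p = 0.801), and the refed value was -0.10 with a length correction. *Dgat1* (chr15:76502015-76511953, minus strand), a second DGAT unrelated in sequence, stood at 39.4 and 38.6 CPM in WT fasted, 43.5 and 43.2 CPM in HRD1Alb fasted, 29.3 and 31.4 CPM in WT refed, and 33.1 and 43.4 CPM in HRD1Alb refed liver. Both HRD1Alb libraries exceeded both WT libraries in each state, by 0.15 (SE 0.171, adjusted p = 0.703) and 0.33 (SE 0.171, adjusted p = 0.208) on the log2 scale, and neither difference was called. The refed value was 0.51 without the first HRD1Alb refed library and 0.12 without the second. *Mogat1* (chr1:78510991-78538173, plus strand) was scarce, with 49 to 167 counts a library. Its level was 1.57 and 1.19 CPM in WT fasted, 3.13 and 2.49 CPM in HRD1Alb fasted, 1.51 and 1.76 CPM in WT refed, and 1.91 and 3.66 CPM in HRD1Alb refed liver. HRD1Alb libraries were above WT libraries in both states (log2 difference 1.02, SE 0.370, adjusted p = 0.203 fasted, and 0.77, SE 0.367, adjusted p = 0.185 refed), again without a call. The refed value was 1.16 without the first HRD1Alb refed library and 0.22 without the second.

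On the breakdown side stood *Pnpla2*, which encodes ATGL (chr7:141455198-141460743, plus strand). Its level was 259 and 218.5 CPM in WT fasted, 270 and 212 CPM in HRD1Alb fasted, 103 and 82.5 CPM in WT refed, and 86.8 and 122.5 CPM in HRD1Alb refed liver. The genotypes overlapped in both states, and all fasted libraries exceeded all refed ones. Refeeding lowered *Pnpla2* 2.58-fold in WT (log2 fold change -1.37, SE 0.237, adjusted p = 0.0364) and 2.31-fold in HRD1Alb liver (log2 fold change -1.21, SE 0.236, adjusted p = 0.0251). Its genotype difference was 0.01 in fasted liver (SE 0.232, adjusted p = 0.983) and 0.18 in refed liver (SE 0.233, adjusted p = 0.608). The refed value was 0.40 without the first HRD1Alb refed library and -0.10 without the second, neither of them called.

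**Figure D3:**
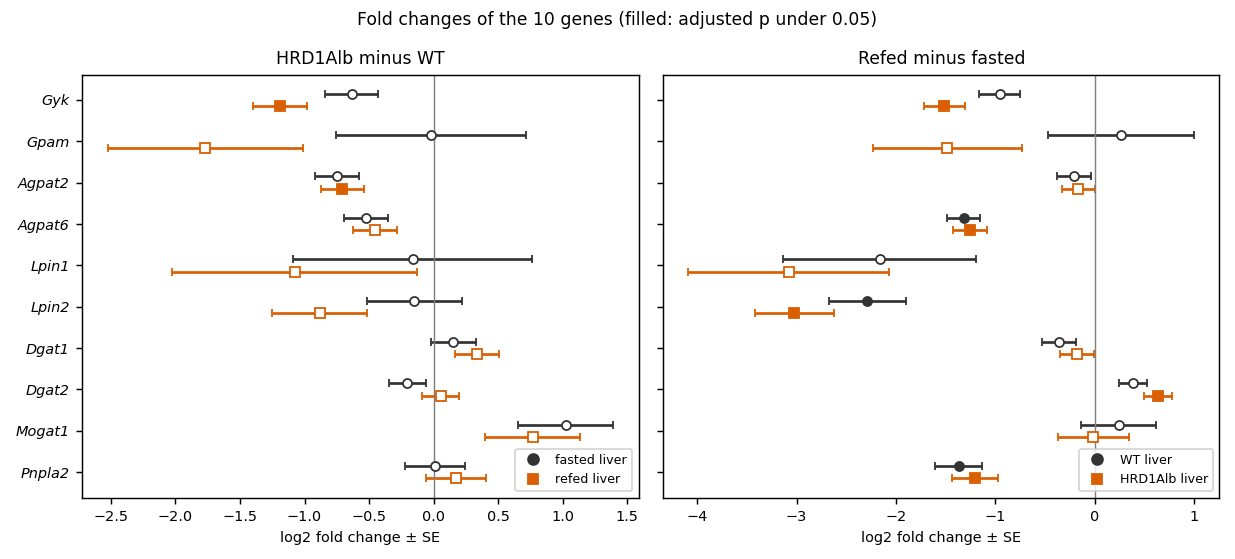
Log2 fold changes of the 10 genes with their standard errors (horizontal bars) from edgeR, for HRD1Alb minus WT on the left and refed minus fasted on the right, with filled symbols for an adjusted p under 0.05. On the left *Gyk* (-1.19) and *Agpat2* (-0.71) are filled in refed liver only, and on the right *Agpat6*, *Lpin2* and *Pnpla2* are filled in both genotypes, with *Gyk* (-1.51) and *Dgat2* (0.64) filled in HRD1Alb liver.

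Counted over the pathway, the genotype comparison in fasted liver called 0 of the 10 genes, where 0.921% of all tested genes were called higher and 0.433% lower. Limma-trend called 0 and DESeq2 called 1 (*Agpat2*), against 1.81% and 7.64% of all tested genes. At an unadjusted p under 0.05 there were 4 (*Gyk*, *Agpat2*, *Agpat6* and *Mogat1*), beside 2630 of all tested genes. Those same 4 were called when one or the other HRD1Alb refed library was left out, with *Mogat1* higher and the others lower, in fits that called 21.7% of all tested genes without the first and 21.3% without the second. The 2 genotypes did not overlap for 6 of the 10 genes, against 64.9% of all tested genes. In refed liver 2 of the 10 were called, both lower, where 4.84% of tested genes were lower and 7.09% higher. The median log2 fold change was -0.58 over the 10 genes and 0.04 over all tested genes. The paper had already listed *Gyk* and *Agpat2/6* as decreased by HRD1 deletion, so the choice of the 10 genes was not independent of these values. Genotypes did not overlap for 9 of the 10, against 60.8% of all tested genes. Leaving out single libraries, each on its own, changed these calls. *Gyk* was lost without either HRD1Alb fasted library (adjusted p = 0.0556 and 0.0553) and without either WT refed library (0.143 and 0.127). *Agpat2* was lost without any one of these (adjusted p = 0.0935 to 0.229) and also without either WT fasted library (0.0645 and 0.0637). Without the first HRD1Alb refed library 5 were called, adding *Gpam*, *Dgat1* and *Mogat1*, and without the second 4, adding *Gpam* and *Agpat6*. Those fits called 52.8% and 23.7% of all tested genes.

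Refeeding called 3 of the 10 genes lower in WT liver and 0 higher, where 1.41% of tested genes were lower and 1.20% higher. In HRD1Alb liver it called 4 lower and 1 higher, where 5.05% of tested genes were lower and 5.43% higher. *Agpat6*, *Lpin2* and *Pnpla2* were in both sets of calls, and these comparisons share no library, although both came from one fit. Fasted and refed libraries did not overlap for 7 of the 10 genes in WT (60.4% of all tested genes) and 8 in HRD1Alb liver (58.7%). The median log2 change was -0.66 in WT and -1.23 in HRD1Alb liver, against 0.0013 and 0.02 over all tested genes. Without either HRD1Alb refed library 6 genes were called in each genotype. In WT these were *Gyk*, *Agpat6*, *Lpin2*, *Dgat1* and *Pnpla2*, lower, and *Dgat2*, higher, in fits that called 17.2% of all tested genes without the first and 17.0% without the second. In HRD1Alb liver they were the same genes without the second (19.7% of all tested genes), and without the first *Gpam* took the place of *Dgat1* (51.4%). The WT calls of *Agpat6*, *Lpin2* and *Pnpla2* were lost without the first WT fasted, either HRD1Alb fasted or either WT refed library (adjusted p = 0.0732 to 0.317), and without the second WT fasted library *Lpin2* alone was called (0.0442). In HRD1Alb liver *Gyk*, *Agpat6* and *Lpin2* were lost without either HRD1Alb fasted library (adjusted p = 0.0614 to 0.104). *Pnpla2* and *Dgat2* were lost without any one library other than the HRD1Alb refed ones (adjusted p = 0.0538 to 0.236). The interaction of genotype with feeding called 0 of the 10 genes and 0% of all tested genes by edgeR, with 1209 genes and 0 of the 10 at an unadjusted p under 0.05. DESeq2 called 95 genes and limma-trend 0, none of them among the 10. Without the first HRD1Alb refed library the edgeR interaction called *Gyk* and *Gpam* and 33.4% of all tested genes.

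Around these enzymes, 22 of 23 other genes of glycerol-3-phosphate supply and acylglycerol synthesis were tested. None was called in fasted liver, where 0.921% of all tested genes were higher and 0.433% lower. In HRD1Alb refed liver 4 were higher and 3 lower, against 7.09% and 4.84% of all tested genes. With refeeding in WT 0 rose and 2 fell, against 1.20% and 1.41%. With refeeding in HRD1Alb liver 2 rose and 4 fell, against 5.43% and 5.05%. The median refed genotype log2 fold change was 0.17, against -0.58 for the 10 genes above and 0.04 over all tested genes. *Agpat9*, a further GPAT of the endoplasmic reticulum (now *Gpat3*), stood at 12.4 and 10.5 CPM in WT refed and at 76.3 and 44.2 CPM in HRD1Alb refed liver, a log2 fold change of 2.39 (SE 0.278, adjusted p = 0.00869). It is the paralog of *Agpat6*, whose refed genotype difference had the opposite sign (-0.45) without being called. *Acsl1*, which activates fatty acids to acyl-CoA, stood at 1919 and 1446 CPM in WT refed and 697 and 606 CPM in HRD1Alb refed liver (log2 fold change -1.37, SE 0.213, adjusted p = 0.0146). It was also called lower with refeeding in HRD1Alb liver (adjusted p = 0.0096), from 1775 and 2058 CPM fasted. Its WT fasted level was 4515 and 3879 CPM. The lipid phosphate phosphatase genes *Ppap2b* and *Ppap2c* went opposite ways in refed liver, by -1.12 (adjusted p = 0.0121) and 0.89 (adjusted p = 0.0302) on the log2 scale. *Agpat5*, another lysophosphatidic acid acyltransferase, was higher by 0.78 (adjusted p = 0.0315) and rose with refeeding in HRD1Alb liver (adjusted p = 0.0312). The remaining calls, named after their values were seen, were *Agpat4* (1.38) and the glycerol channel gene *Aqp9* (-0.59) in refed liver by genotype. Among genes not named above, *Aqp3* (-2.85) and *Gpd2* (-0.84) were called lower with refeeding in HRD1Alb liver. *Agpat4* and *Aqp3* had few counts. *Agpat4* had 18 and 14 in WT refed and 62 and 49 in HRD1Alb refed libraries. *Aqp3* had 95 and 81 in HRD1Alb fasted and 7 and 16 in HRD1Alb refed libraries.

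Among other lipases and their cofactors, 20 of the 22 listed genes were tested. In HRD1Alb fasted liver 2 were higher and none lower, against 0.921% and 0.433% of all tested genes. In HRD1Alb refed liver 3 were higher and 5 lower, against 7.09% and 4.84%. Refeeding lowered 1 in WT and 2 in HRD1Alb liver, against 1.41% and 5.05% of all tested genes. It raised none, against 1.20% and 5.43%. *Lpl*, the lipoprotein lipase that is low in adult hepatocytes and also made by macrophages, stood at 21.9 and 33.5 CPM in WT fasted, 107 and 110.5 CPM in HRD1Alb fasted, 17.9 and 25.1 CPM in WT refed, and 143 and 129 CPM in HRD1Alb refed liver. It was higher in HRD1Alb liver in both states (log2 fold change 1.98, SE 0.256, adjusted p = 0.0266 fasted, and 2.66, SE 0.262, adjusted p = 0.00691 refed). *Hilpda*, which encodes a lipid droplet protein that inhibits ATGL, was also higher in both (1.60, adjusted p = 0.0297, and 1.25, adjusted p = 0.0199). The carboxylesterase *Ces3b* was lower in refed liver (-2.01, adjusted p = 0.0182), as was *Daglb*, a diacylglycerol lipase gene (-0.60, adjusted p = 0.0387). *Ces1d*, another carboxylesterase, fell with refeeding in WT (-1.19, adjusted p = 0.0368) and HRD1Alb liver (-0.86, adjusted p = 0.0420), and *Hilpda* fell with refeeding in HRD1Alb liver (-1.14, adjusted p = 0.0224). The remaining calls in refed liver, named after their values were seen, were *G0s2* (1.40), *Ces1f* (-1.06), *Mgll* (-0.66) and *Lipa* (-0.65). *G0s2* encodes another inhibitor of ATGL. It stood at 112 and 129 CPM in WT refed and at 199.5 and 438 CPM in HRD1Alb refed liver. *Lipa* encodes lysosomal acid lipase.

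Markers of other liver cells moved with genotype beside these changes. The 6 Kupffer cell and macrophage markers measured summed to 89.2 to 105 CPM in WT and 200.4 to 407 CPM in HRD1Alb libraries. Of them 2 were called higher in fasted and 6 in refed liver, against 0.921% and 7.09% of all tested genes. The 6 stellate cell and fibroblast markers summed to 163 to 351.5 CPM in WT and 348 to 480 CPM in HRD1Alb libraries (0 called in fasted and 3 in refed liver), and 6 lymphocyte markers to 6.62 to 10.1 against 14.0 to 18.1 CPM (0 and 1 called). The 6 hepatocyte markers summed to 110000 to 154400 CPM in WT and 65640 to 105200 CPM in HRD1Alb libraries, with none called between genotypes, and all 6 were present in every library. No marker among 5 endothelial and 5 cholangiocyte genes was called between genotypes. The part of these markers in the changes of *Lpl*, *Gyk* and *Agpat2* was not tested. Of 6 adipocyte markers, *Lep*, *Adipoq*, *Plin1* and *Retn* had 0 to 3 counts in every library, *Cfd* had 0 to 16 and *Adrb3* had 78 to 356. *Adrb3*, a beta-adrenergic receptor gene, was lower in HRD1Alb refed liver (-1.42, SE 0.319, adjusted p = 0.0354) and fell with refeeding in HRD1Alb liver (-1.57, adjusted p = 0.0275).

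**Figure D4:**
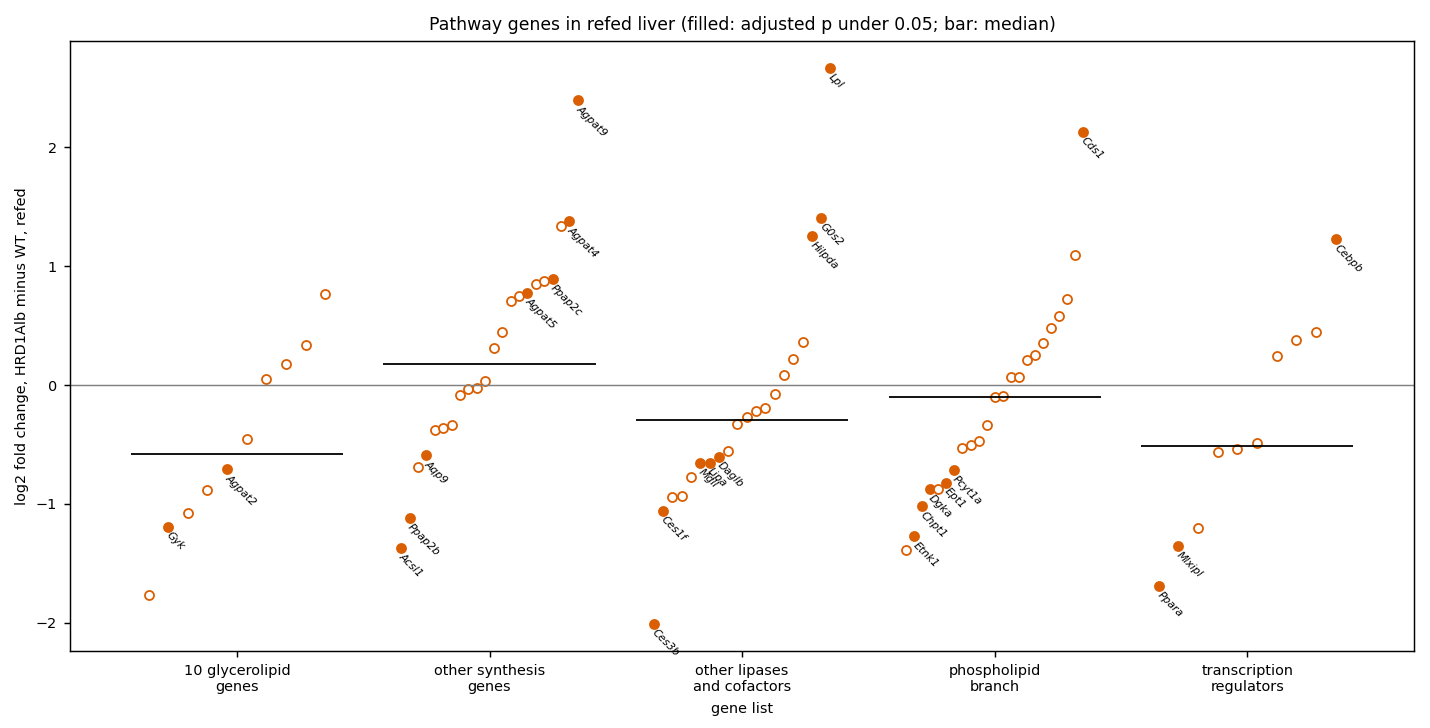
Refed genotype log2 fold changes (HRD1Alb minus WT) of the tested genes in 5 lists, each point one gene ordered by value within its list, with filled points for an adjusted p under 0.05, a bar at the list median, and names on the called genes. The medians run from -0.58 for the 10 glycerolipid genes to 0.17 for the other synthesis genes, and the highest points are *Lpl* (2.66) and *Agpat9* (2.39).

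Phosphatidic acid and diacylglycerol also feed phospholipid synthesis, and 23 of 24 listed genes of that branch were tested. In refed liver 1 was higher and 5 lower in HRD1Alb libraries, against 7.09% and 4.84% of all tested genes. None was called in fasted liver (0.921% higher and 0.433% lower over all) or with refeeding in WT (1.20% and 1.41%). Refeeding in HRD1Alb liver called 1 higher and 2 lower, against 5.43% and 5.05% of all tested genes. *Chpt1*, which joins choline to diacylglycerol, stood at 324.5 and 322 CPM in WT refed and 187 and 131.5 CPM in HRD1Alb refed liver (log2 fold change -1.02, SE 0.207, adjusted p = 0.0284). *Pcyt1a*, the regulated enzyme of phosphatidylcholine synthesis, was lower by -0.72 on the log2 scale (adjusted p = 0.0361). The ethanolamine kinase gene *Etnk1* was lower by -1.27 (adjusted p = 0.0327). *Etnk1* stood at 134.6 and 129.8 CPM in WT refed and at 70.8 and 38.6 CPM in HRD1Alb refed liver. *Dgka*, a diacylglycerol kinase gene that returns diacylglycerol to phosphatidic acid, was lower by -0.87 in HRD1Alb refed liver (adjusted p = 0.0315) and fell with refeeding in HRD1Alb liver (-1.14, adjusted p = 0.0150). *Pgs1*, of the cardiolipin branch, rose with refeeding in HRD1Alb liver (0.92, adjusted p = 0.0283). Named after their values were seen, the remaining calls in refed liver were *Cds1* (2.13), a CDP-diacylglycerol synthase gene, and *Ept1* (-0.82). *Ept1* was also called for refeeding in HRD1Alb liver (-0.83), and the HRD1Alb refed libraries stood at 77.65 and 54.4 CPM. *Cds1* was near the floor, with 3 and 6 counts in WT refed and 32 and 22 counts in HRD1Alb refed libraries.

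Of 11 transcription regulators tied to these genes, 10 were tested. In refed liver 1 was higher and 2 lower in HRD1Alb libraries, against 7.09% and 4.84% of all tested genes. None was called in fasted liver (0.921% higher and 0.433% lower over all). Refeeding raised 1 and lowered 1 in WT, against 1.20% and 1.41% of all tested genes. It raised 1 and lowered 2 in HRD1Alb liver, against 5.43% and 5.05%. *Ppara*, the nuclear receptor of the fasting response, stood at 219.5 and 227 CPM in WT refed and 74.6 and 63.7 CPM in HRD1Alb refed liver (log2 fold change -1.69, SE 0.178, adjusted p = 0.00817). It fell with refeeding in WT (-1.12, adjusted p = 0.0310) and in HRD1Alb liver (-2.31, adjusted p = 0.00346), as *Agpat6*, *Lpin2* and *Pnpla2* did. *Mlxipl*, which encodes the carbohydrate sensor ChREBP, stood at 278 and 306 CPM in WT refed and 144 and 83.7 CPM in HRD1Alb refed liver (log2 fold change -1.36, SE 0.280, adjusted p = 0.0292). *Srebf1*, the insulin-responsive SREBP-1 gene, rose with refeeding in WT (2.25, SE 0.370, adjusted p = 0.0336), and its value in HRD1Alb liver was 1.20 (SE 0.358, adjusted p = 0.0733). It stood at 88.8 and 206.5 CPM in WT refed and at 66.6 and 61.95 CPM in HRD1Alb refed liver. That genotype difference was not called (log2 fold change -1.20, SE 0.3575, adjusted p = 0.0692). *Cebpb*, a basic leucine zipper factor, was higher in HRD1Alb refed liver (1.22, adjusted p = 0.0249), and *Ppargc1a* fell with refeeding in HRD1Alb liver (-2.73, adjusted p = 0.0236). *Cebpa*, named after its value was seen, rose with refeeding in HRD1Alb liver (0.69, adjusted p = 0.0418).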

How the data were processed

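Liver RNA was sequenced on an Illumina NextSeq instrument, with 1 lane for each of 8 samples. The values deposited by the authors are raw counts per gene symbol, whole numbers without normalization, 1 file a sample. The study's methods name ERANGE for the counting, while the submitters' processing notes list cutadapt, STAR, HTSeq, DESeq2 and the build mm10, so which counter made the files is not settled. The annotation and strand setting are not given in the sources used here.

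Samples were grouped by their labels. The 10 genes, the gene lists and the motifs were chosen with earlier results of these data known. Counts were fitted with edgeR 4.0.16 in R 4.3.3 (filterByExpr with a minimum count of 10 and a minimum total of 15, TMM factors, 1 quasi-likelihood model of all 8 samples with a coefficient per group, common dispersion 0.0573). The SE of a log2 fold change is its size over the root of its F statistic. CPM here is the count scaled to a fixed library size after TMM. From each list of other pathway genes the text names at most 5 called genes, by smallest adjusted p over the 5 contrasts. Positions and exon lengths came from GENCODE M21 on GRCm38, where 20953 symbols matched directly and 1919 through a RefSeq synonym. Alternatives were RLE factors, DESeq2 1.42.0, limma-trend (limma 3.58.1), no filter, at least 10 counts in every sample, only the 4 samples of a contrast, a replicate block, a length offset (loess span 0.5) with and without the block, and each library left out in turn. Leaving out a library leaves its group with 1 sample, which is then assumed to vary like the other groups. In a simulation of the fasted genotype contrast over 14105 genes, edgeR recovered 15.3% of 2-fold and 94% of 4-fold changes. The simulated libraries all shared the same dispersion and had no length trend, unlike the real ones, so these shares do not measure recovery in the real fit. No 2 libraries of a group were copies of one (chi-square over degrees of freedom 45.5 to 350.3). With 2 samples against 2, an exact two-sided permutation test of 1 gene cannot go below 0.333, so none was run. Plots were made in matplotlib 3.10.9 under Python 3.11.15.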

Additional observations from a re-analysis of the deposited data

How the results depend on the processing

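The number of the 10 genes called depended on which libraries shared the estimate of the spread. Leaving out each library in turn, the calls ranged from 0 to 4 for genotype in fasted liver, 0 to 5 in refed liver, 0 to 6 for refeeding in either genotype and 0 to 2 for the interaction. With only the 4 samples of the contrast they were 3 and 0 for genotype in fasted and refed liver. For refeeding in WT and HRD1Alb liver they were 5 and 0, with fewer samples behind each spread. Where that fit called none of the 10 it called no gene at all, and its other totals follow in the next paragraph. DESeq2 and the length offset each called 1 in fasted liver, where they called 7.64% and 4.22% of all tested genes. All other counts were within 1.5 times of those reported, and the cause of these shifts was not tested. The replicate numbers marked different samples with no label of a shared litter or day, and deviations of same-numbered samples correlated weakly (r = 0.0161 to 0.179). The fit with a replicate block called 0, 2, 3 and 5 of the genes in the 4 comparisons and 0 for the interaction, as without it.

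The calls over all tested genes also moved. In fasted liver 194 genes differed by genotype, against 1094 with DESeq2, 605 with the length offset, 511 with the length offset and block, 323 with no filter, 119 with the block and 2033 with the 4 samples alone. In refed liver 1709 became 3178 with DESeq2 and 0 with the 4 samples alone, and the fits without a library gave 1 to 7705. Refeeding in WT liver moved from 374 to 1086 with DESeq2, 710 with the length offset, 662 with offset and block, and 1882 with 4 samples, and in HRD1Alb liver from 1501 to 2921 with DESeq2 and 0 with 4 samples. The fits without a library gave 0 to 3159 for genotype in fasted liver, 0 to 2508 and 15 to 7496 for refeeding in WT and HRD1Alb liver, and 0 to 4878 for the interaction, which was 0 with all libraries, 2 with no filter and 95 with DESeq2.

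Every value that changed sign belonged to a gene not called in that comparison. For genotype in fasted liver, *Gpam* (-0.02) was 0.0061 with 10 counts in every sample, 0.011 with limma-trend, 0.016 with 4 samples, 0.043 with the block and 0.019 with offset and block. *Lpin1* (-0.16) was 0.34 with limma-trend, 0.027 with the block and 5e-04 with offset and block. *Pnpla2* (0.01) was -0.0054 with RLE factors and DESeq2, -0.027 with the offset and -0.029 with offset and block. In refed liver *Dgat2* (0.05) was -0.10 with the offset, alone and with the block, and *Pnpla2* (0.18) was -0.0031 with the offset. *Mogat1* under refeeding in HRD1Alb liver (-0.02) was 3e-04 with 4 samples, and the *Agpat2* interaction (0.04) was -0.18 with the offset, alone and with the block.

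Leaving out a library in turn, the fasted genotype values ranged from -0.28 to 0.33 for *Gpam*, -1.35 to 2.22 for *Lpin1*, -0.61 to 0.58 for *Lpin2* and -0.18 to 0.18 for *Pnpla2*. The refed value of *Pnpla2* ranged from -0.10 to 0.40, the WT refeeding value of *Lpin1* from -2.99 to 0.23 and the HRD1Alb refeeding value of *Mogat1* from -0.55 to 0.38. Interactions ranged from -0.14 to 0.18 for *Agpat2*, -0.052 to 0.21 for *Agpat6*, -3.31 to 0.26 for *Lpin1*, -0.03 to 0.36 for *Dgat1*, -0.79 to 0.14 for *Mogat1* and -0.11 to 0.39 for *Pnpla2*. *Mogat1* had the fewest counts of the 10 genes, 49 to 167 a library. Counting error and the spread between libraries were not separated.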
